A study of Mus musculus with 35 samples.

Results

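The 101 genes described here encode subunits of oxidative phosphorylation, and they were chosen by name alone from the 25655 genes of the authors' tables. The rule took mt-Nd, mt-Co, mt-Cytb and mt-Atp genes, the Nduf subunit genes, Sdha to Sdhd, and names starting with Uqcr, Cox4 to Cox8 or Atp5, and left out pseudogene names. Of the 101 members, 13 lie in the mitochondrial genome and 88 in the nucleus. By complex, the nuclear members fall into 38 of complex I, 4 of complex II, 8 of complex III, 20 of complex IV and 18 of complex V, beside 7, 0, 1, 3 and 2 mitochondrially encoded ones. Ndufa4 and Ndufa4l2 are counted with complex IV.

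Messenger RNA from the retinas of mice labelled wild-type, and CX3CR1-WT in the series text, was sequenced after poly(A) selection in 35 samples of 7 groups. The diabetic groups were D6 (6 weeks of diabetes, 5 samples), D8 (8 weeks, PBS, 5 samples), D10 (10 weeks, PBS, 5 samples), D8 depleted (8 weeks, with 2 weeks of a microglia-depleting treatment, 4 samples) and D10 repopulated (10 weeks, with 2 weeks of that treatment and 2 weeks of recovery, 5 samples). ND repopulated (5 samples) had the same treatment and recovery without diabetes, and ND (6 samples) was non-diabetic and serves as the common control. The labels call the treatment DTx and the series text names PLX-5622, so the agent is in conflict between the sources, and only "depletion" is used here. PBS is named in the labels of D8 and D10 only, whereas the series text speaks of normal chow for diabetic controls and of non-diabetic mice at every time. The labels do not say how diabetes was brought about, how old the mice were or whether each sample was a separate animal, so p-values measure the spread between samples, which may in part be technical. By the library numbers in the sample titles, D8 and D10 stand together, apart from the other 5 groups, so a contrast of D8 or D10 with any of those cannot be told apart from this divide.

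Oxidative phosphorylation is carried out in the inner mitochondrial membrane. Complexes I and II take electrons from NADH and succinate, complex III passes them to cytochrome c, complex IV reduces oxygen, and complex V uses the proton gradient that complexes I, III and IV build to make ATP. Subunits from the mitochondrial genome, cut from long shared transcripts, join nuclear subunits made in the cytosol, while complex II is wholly nuclear. Retina is known for a high demand for ATP, with dense mitochondria in the inner segments of rods and cones.

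For each gene, the 8 comparison tables hold the log2 fold change with its p-value and, of the 2 group means, the larger one. Values per sample were not used here, so sequencing depth is unknown and the spread within groups is seen only through an implied standard error (SE), obtained per gene from the size of its log2 fold change and the normal deviate that matches its p-value. A gene was called higher or lower at an adjusted p under 0.05 in the authors' deposited table. Cox8c, Ndufb11b and Atp5o_1 have no adjusted p in any table, which left 98 tested members, and 96 for ND repopulated against ND. A group's mean could be read where both groups of a table differ clearly or where the same value stands in several tables, and otherwise only as an upper bound. Means and fold changes are not on quite the same scale. The assembly factor Uqcc2 was at -0.02 in D8 depleted against ND, with means of 74.7 in D8 depleted and 73.4 in ND. The 8 rod markers were present at deposited levels between 278 and 5036, in a unit that is not stated. In bulk retina, fewer cells of a type and less RNA per cell cannot be told apart.

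The first sequences that bear on the results are 2 overlaps in the mitochondrial genome, shown because the genes on either side had different values and because reads over the shared bases may count for either gene. All 13 mitochondrial members had the same start and end in the authors' files and in GENCODE M21, from whose GRCm38 transcripts the bases were read. In mt-Nd4l (MT 9877 to 10173, plus strand) and mt-Nd4 (MT 10167 to 11544, plus strand), 7 bases are shared and stand in capitals, and in mt-Atp8 (MT 7766 to 7969) and mt-Atp6 (MT 7927 to 8607) 43 bases are shared.
mt-Nd4l and mt-Nd4, MT 10143 to 10197: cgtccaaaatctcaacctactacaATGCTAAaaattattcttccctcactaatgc
mt-Atp8 and mt-Atp6, MT 7903 to 7993: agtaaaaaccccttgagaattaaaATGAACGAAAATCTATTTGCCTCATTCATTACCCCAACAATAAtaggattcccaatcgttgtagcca

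Promoters are shown for Cox6a1 and Ndufs7, the pair of members with the largest called rises in D8 depleted against D8. Bases are from RefSeq on GRCm38.p6, 250 before to 50 after the start, with motif matches in capitals. Cox6a1 (chr5:115348909-115349208, minus strand) holds the NRF1 motif and, as the reverse complement, the ETS motif, while Ndufs7 (chr10:80249199-80249498, plus strand) holds none of those searched.
Cox6a1: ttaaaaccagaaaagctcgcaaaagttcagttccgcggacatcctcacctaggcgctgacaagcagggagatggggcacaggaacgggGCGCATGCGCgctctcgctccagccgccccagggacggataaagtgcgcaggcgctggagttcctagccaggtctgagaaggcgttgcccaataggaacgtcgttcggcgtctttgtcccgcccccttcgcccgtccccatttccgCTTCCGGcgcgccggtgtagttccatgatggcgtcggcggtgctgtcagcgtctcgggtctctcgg
Ndufs7: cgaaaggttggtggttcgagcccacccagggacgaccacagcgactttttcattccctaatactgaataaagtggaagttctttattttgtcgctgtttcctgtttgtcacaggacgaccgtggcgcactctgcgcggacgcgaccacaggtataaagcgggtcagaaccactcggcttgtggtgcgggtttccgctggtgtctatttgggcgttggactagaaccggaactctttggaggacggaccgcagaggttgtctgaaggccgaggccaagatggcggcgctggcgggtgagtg

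Of the 88 nuclear members, 69 matched a promoter by symbol. The NRF1 motif, the palindrome in capitals in the Cox6a1 promoter, stood in 5 of the 69 (7.25%) and in 0.977% of the 27025 promoters of all genes, on either strand. The ETS motif CCGGAAG, which the factor GABP binds, stood in 16 (23.2%) and in 9.12% of all promoters. The motif AAGGTCA of the estrogen-related receptors stood in 8 (11.6%) and in 4.66% of all promoters. The matches are a description of letters, and Cox6a1, with matches, and Ndufs7, with none, were both called in the same direction.

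After 6 weeks of diabetes more members were called higher than lower. In D6 against ND, 15 of 98 members were higher and 3 lower in the authors' deposited table. The share called higher was 15.3%, against 14.1% of all 17876 tested genes, and the share called lower was 3.06%, against 9.31% of all genes. The share higher was therefore near the background, and the share lower was below it. All 15 that rose were nuclear, and mt-Nd4l was the mitochondrial member among the 3 that fell.

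At 8 and 10 weeks of diabetes without depletion the members gave 2 calls in all. In D8 against ND 0 members were called higher and 0 lower in the authors' deposited table by the authors' test, whose name is not given in the sources used here. At an unadjusted p under 0.05 there were 0 higher and 2 lower, Ndufa1 and Cox8b. All genes were called at 2.33% higher and 0.583% lower there. In D10 against ND 0 members were higher and 2 lower (Ndufa1 and mt-Nd4l) in the authors' deposited table, beside 5.59% of all genes higher and 1.41% lower. In D10 9 members, those 2 among them, had an unadjusted p under 0.05, and all 9 were lower.

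As deposited, D8 depleted against ND had the most members called of the 8 comparisons. Of the 98 members 23 (23.5%) were higher and 2 lower in D8 depleted against ND in the authors' deposited table, beside 15.5% of all genes higher and 13% lower. Against D8, the diabetic group of the same time, 4 members were higher and 0 lower in the authors' deposited table. That is 4.08% of the members, beside 5.85% of all genes higher and 4.9% lower, so the share was close to the background. The 4 were Cox6a1, Ndufs7, Ndufb9 and Ndufa2.

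After repopulation the calls were few. In D10 repopulated against ND 0 members were higher and 4 lower (Ndufb2, Ndufa1, Ndufc1 and Atp5e) in the authors' deposited table, beside 7.49% of all genes higher and 4.19% lower. D10 repopulated against D10 gave 0 calls in either direction in the authors' deposited table, and 2 members higher at an unadjusted p under 0.05, mt-Nd4l and mt-Atp8. All genes were called at 0.178% higher and 0.267% lower there. ND repopulated against ND gave 0 calls and 0 members at an unadjusted p under 0.05 in the authors' deposited table, beside 0.0844% of all genes higher and 0.0714% lower.

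These counts changed when a trend on transcript length and base composition was taken off. The trend was fitted with members among the genes. The members had shorter transcripts at the median than the genes fitted, so an effect of length and a change of the members themselves cannot be told apart. Length was that of the longest annotated transcript of each gene. Nuclear members had a median of 988.5 bases, against 3447 bases for genes with a level over 1. Fold changes of all genes followed a trend on length and GC content, and with that trend taken off the members called became 1 higher and 21 lower in D6 against ND, beside 11.3% of all genes higher and 13.3% lower. They became 0 higher and 19 lower in D10 against ND, beside 5.08% of all genes higher and 3.30% lower, and 3 higher and 5 lower in D8 depleted against ND, beside 13.3% higher and 12.6% lower. They became 0 higher and 26 lower in D10 repopulated against ND, beside 6.40% of all genes higher and 7.29% lower, and 0 and 0 in D8 depleted against D8. With the trend off, then, D10 repopulated against ND, D6 and D10 each had more members called than D8 depleted against ND. The median log2 fold change of the nuclear members was 0.10 in D6 as deposited and -0.07 with the trend off, and 0.17 in D8 depleted against ND as deposited and -0.00 with the trend off. It was -0.04 in D10 as deposited and -0.18 with the trend off, -0.06 in D10 repopulated against ND and -0.17 with the trend off, and 0.15 in D8 depleted against D8 and 0.05 with the trend off. The small medians also turned sign: with the trend off they were -0.03 in D8, -0.01 in ND repopulated and 0.02 in D10 repopulated against D10, where 0.00, 0.03 and -0.02 stood as deposited. Of 53 single calls, 13 held with the trend off: Ndufb7 in D6 and in D8 depleted against ND, Cox6c and Ndufa4l2 in D8 depleted against ND, Ndufc1 and Ndufb2 in D6 and in D10 repopulated against ND, mt-Nd4l in D6 and D10, Ndufa1 in D10 and in D10 repopulated against ND, and Atp5e in D10 repopulated against ND. Among these, Ndufb7 (4435 bases), Ndufb2 (4371) and Cox6c (3038) entered the fit with lengths far above the median of the nuclear members. Whether retina uses these long transcripts was not tested, so the trend taken off these genes may be that of another length.

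**Figure D1:**
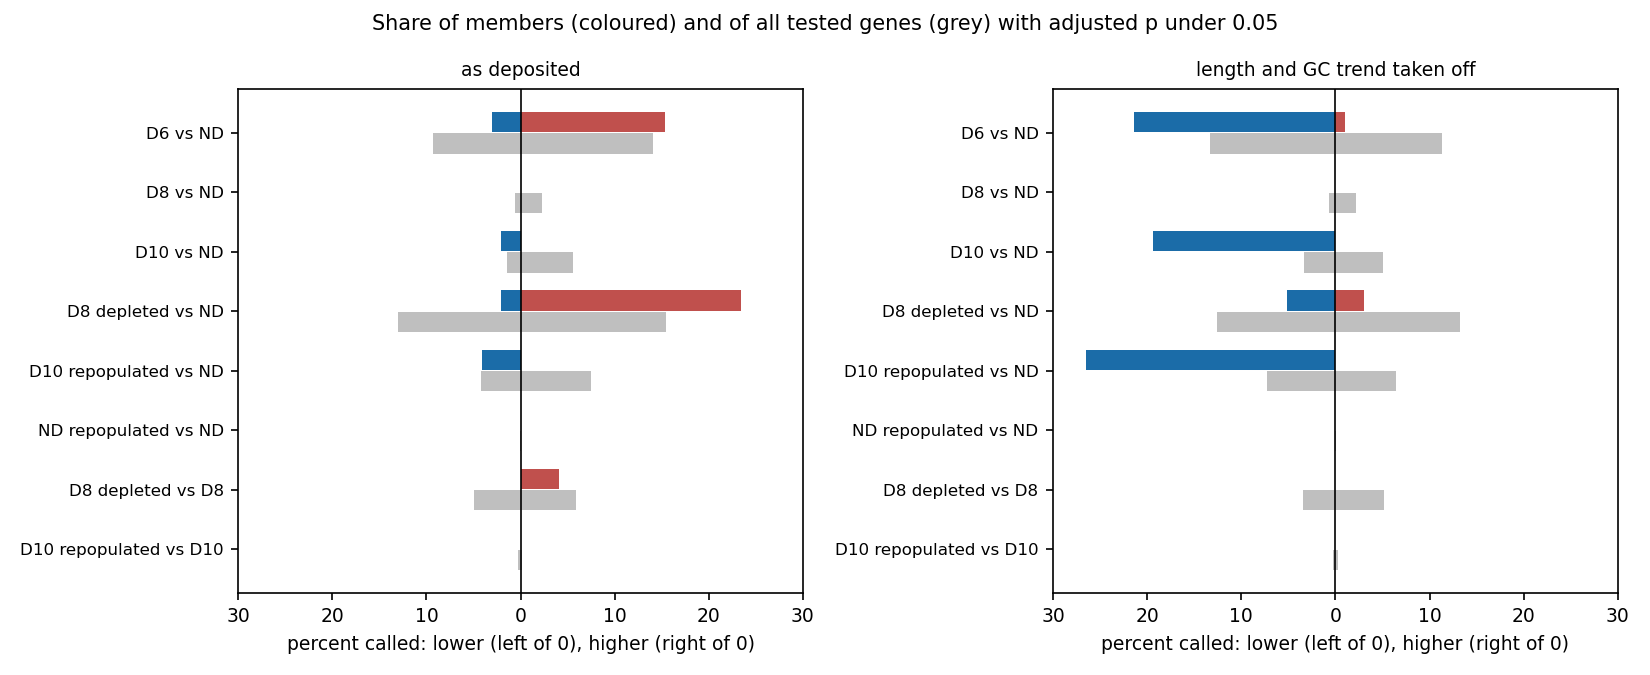
Percent of the members (coloured, red higher and blue lower) and of all tested genes (grey) with an adjusted p under 0.05 in each comparison, as deposited (left) and with the length and GC trend taken off (right). The 15 members higher in D6 become 1 and the 3 lower become 21 once the trend is taken off.

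**Figure D2:**
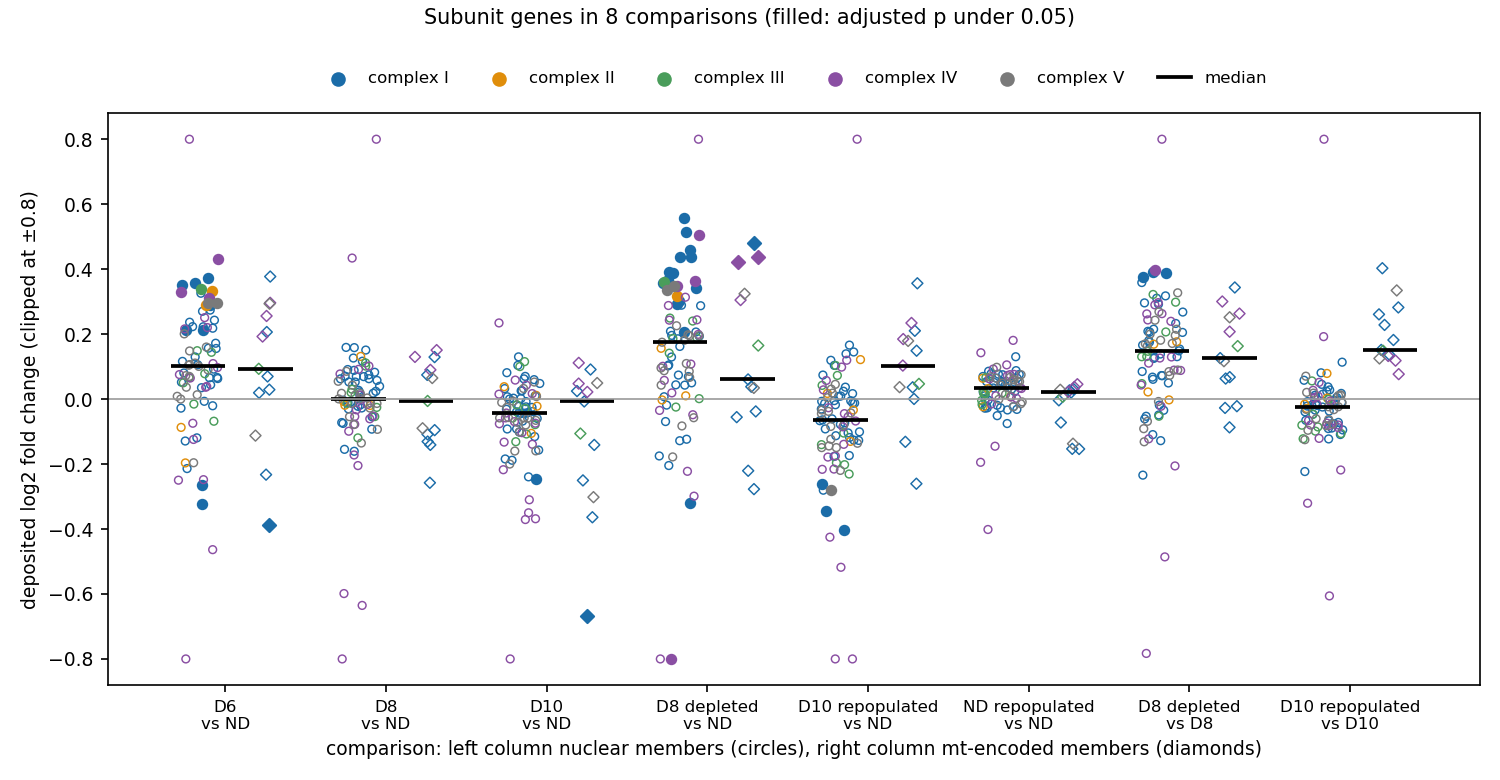
Deposited log2 fold change of each member with an adjusted p (points, drawn at ±0.8 where beyond it), coloured by complex, with nuclear members as circles and mitochondrially encoded ones as diamonds; filled points were called, and black bars are medians. The nuclear median is 0.17 in D8 depleted against ND (-0.00 with the length and GC trend off), and all 13 mitochondrial points lie above 0 in D10 repopulated against D10.

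Among the mitochondrially encoded genes, mt-Nd4l, a small membrane subunit of complex I, had the lowest fold change in all 6 comparisons with ND, which share the ND samples. It was lower, at -0.39 (SE 0.14, adjusted p = 0.0301) in D6 and -0.67 (SE 0.14, adjusted p = 8.89e-05) in D10 in the authors' deposited table. Without passing the test it stood at -0.26 in D8, -0.28 in D8 depleted, -0.26 in D10 repopulated and -0.15 in ND repopulated in the authors' deposited table. Its level was at most 742 in D8 depleted, 731 in D10 repopulated, at most 731 in D10, and 870 in ND in the authors' deposited table. Both falls held with the length and GC trend off, at -0.87 in D6 and -0.89 in D10. The gene has 297 bases, against a median of 3447 for genes with a level over 1. The sizes with the trend off therefore rest on the short end of the fit.

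mt-Nd4, another membrane subunit of complex I, shares 7 bases with it and had no call. It was at 0.03 (SE 0.14) in D6 and -0.14 (SE 0.14) in D10 in the authors' deposited table, neither called. The other overlapping pair encodes 2 membrane subunits of complex V. In D10 mt-Atp8 was at -0.30 (SE 0.15) and mt-Atp6 at 0.05 (SE 0.14) in the authors' deposited table, neither called. Differences within these pairs were not tested, since both genes share samples.

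mt-Nd1, which forms part of the quinone site of complex I, was the highest mitochondrial gene in D6 and in both depleted or repopulated diabetic groups against ND. It rose by 0.48 (SE 0.16, adjusted p = 0.0143) in D8 depleted against ND in the authors' deposited table. mt-Co1 and mt-Co2, the catalytic subunits of complex IV that hold its copper and heme centres, rose there by 0.42 (SE 0.16, adjusted p = 0.0283) and 0.44 (SE 0.15, adjusted p = 0.0204) in the authors' deposited table. None of these 3 calls held with the length and GC trend off. The mean of mt-Nd1 was 3688 in D6, 3271 in D8, 3158 in D10, 4225 in D8 depleted, 3783 in D10 repopulated and at most 2970 in ND in the authors' deposited table. By these means the depleted group was the highest of the 7 and ND or ND repopulated the lowest.

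The other mitochondrial genes gave no call in any comparison. In D8 depleted against ND, mt-Atp6 was at 0.32 and mt-Co3, a further core subunit of complex IV, at 0.30, while mt-Nd5, a proton-pumping subunit of complex I, was at -0.22 in the authors' deposited table. mt-Cytb, the cytochrome b of complex III, was at 0.16, mt-Nd4 at 0.04, mt-Nd3 at -0.04 and mt-Nd2 at -0.06 there in the authors' deposited table. mt-Nd6, the member read from the other strand, was at 0.06 with a level of 34.5 in D8 depleted in the authors' deposited table. mt-Nd6 overlaps the end of mt-Nd5 on the opposite strand, and whether counting used strand is not known here. The 13 genes spread over 0.758 log2 units in that comparison. The spread was 0.779 in D10, 0.765 in D6, 0.617 in D10 repopulated, 0.408 in D8 and 0.199 in ND repopulated against ND.

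Repopulation in diabetes was the comparison in which the mitochondrial genes lay on one side. In D10 repopulated against D10 all 13 were above 0, between 0.08 (mt-Co3) and 0.40 (mt-Nd4l), with a median of 0.15 and 0 called in the authors' deposited table. The nuclear members there had a median of -0.02, with 27 of 85 above 0, and the median of all genes with a level over 1 was -0.01. mt-Nd4l was at 0.40 (SE 0.14, adjusted p = 0.251) and mt-Atp8 at 0.33 (SE 0.16, adjusted p = 0.615) in the authors' deposited table. The 13 genes share transcripts and samples, so their common sign is not 13 separate observations, and both groups lie on different sides of the divide in library numbers.

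**Figure D3:**
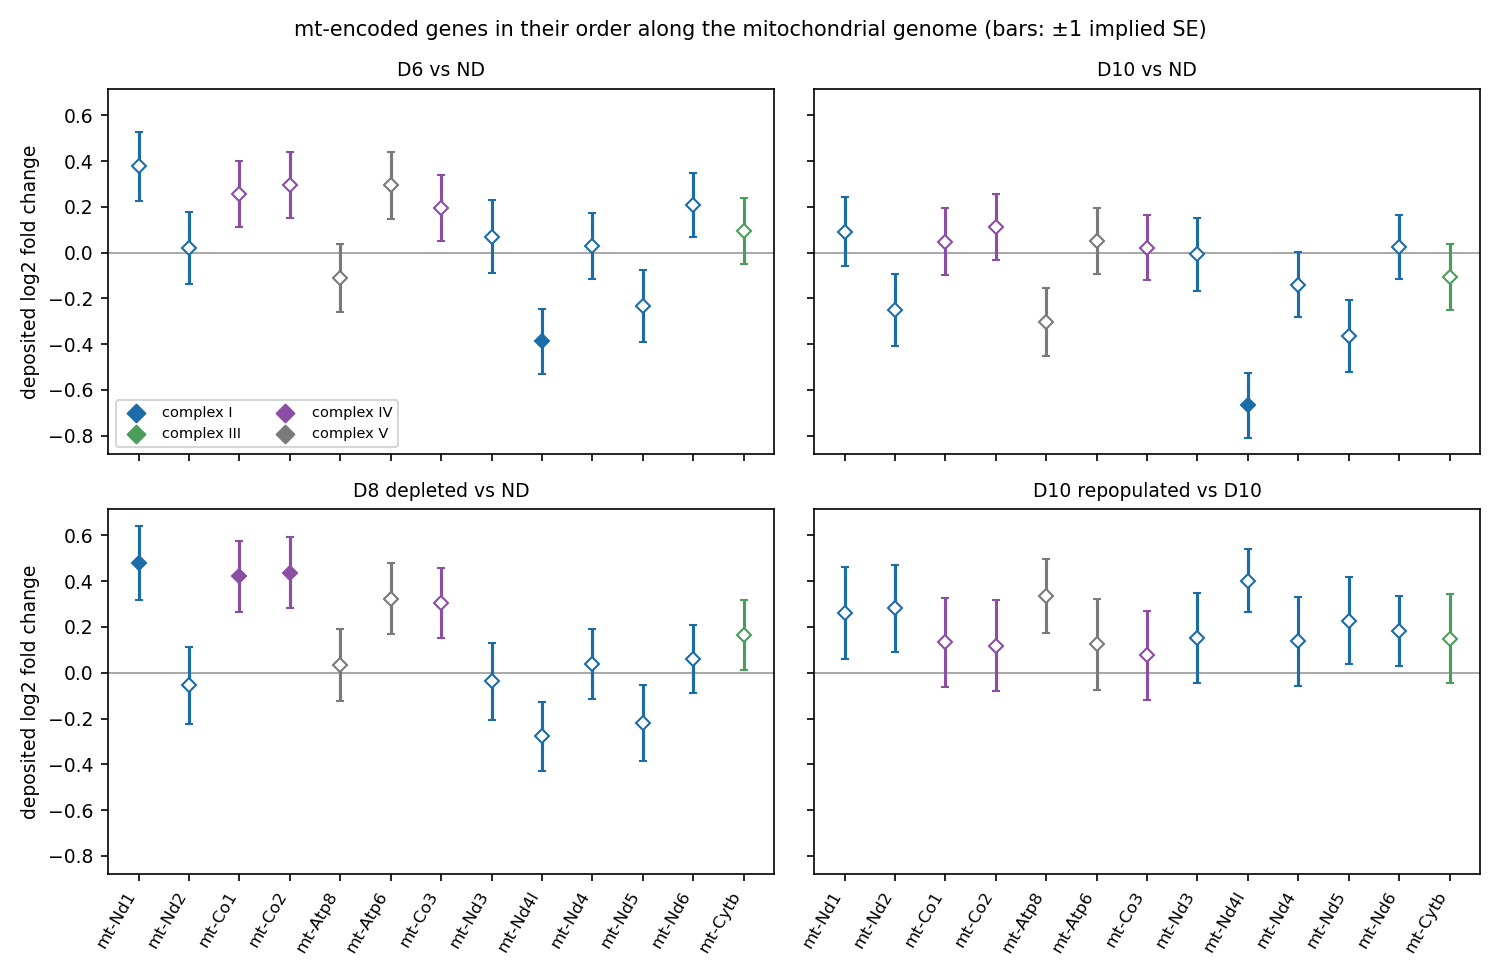
Deposited log2 fold changes (diamonds, filled where called, bars of 1 implied SE to each side) of the 13 mitochondrially encoded genes in their order along the mitochondrial genome, in 4 comparisons. mt-Nd4l is the lowest gene in the 3 comparisons with ND and the highest in D10 repopulated against D10, where all 13 lie above 0.

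Complex I has the most nuclear genes, 37 of the 85 tested. With depletion, 13 of 37 were higher and 1 lower against ND, with a median of 0.19 in the authors' deposited table. Of all genes, 15.5% were higher and 13% lower there. Among them were Ndufs7 (chr10:80084955-80092628 on GRCm39), an iron-sulfur subunit next to the quinone site, at 0.56 (SE 0.12, adjusted p = 3.49e-05), and Ndufb9, an accessory subunit of the membrane arm, at 0.51 (SE 0.14) in the authors' deposited table. Ndufa2 rose by 0.44 and Ndufa7, the smallest rise, by 0.21 in the authors' deposited table. Ndufb2 (chr6:39569508-39580316), a membrane arm accessory subunit, was lower, at -0.32 (SE 0.10, adjusted p = 0.00607) in the authors' deposited table.

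Against D8, Ndufs7 rose by 0.39 (SE 0.12, adjusted p = 0.0213), Ndufb9 by 0.39 (SE 0.13, adjusted p = 0.0299) and Ndufa2, an accessory subunit of the NADH-binding module, by 0.38 (SE 0.13, adjusted p = 0.039) in the authors' deposited table. Ndufs7 had a mean of 83.1 in D8 depleted and 62.3 in D8 in the authors' deposited table. Ndufb9 had 158 in D8 depleted and 119 in D8, and Ndufa2 111 in D8 depleted and 84.3 in D8 in the authors' deposited table. All 3 were higher in the depleted group, and their calls were lost with the length and GC trend off.

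In D6 against ND, 7 of the 37 rose and 2 fell, with a median of 0.13 in the authors' deposited table. Of all genes, 14.1% were higher and 9.31% lower there, so the share of complex I genes that rose was near the background. Ndufb7 (chr8:84293300-84298255 on GRCm39), an accessory subunit of the membrane arm, was higher by 0.37 (SE 0.09, adjusted p = 0.000927) and Ndufs3, a core subunit near the quinone site, by 0.35 (SE 0.11) in the authors' deposited table. Ndufs7 (0.30), Ndufa11 (0.29), Ndufs6 (0.21) and Ndufv1, the subunit that binds NADH (0.21), also rose in the authors' deposited table. With the length and GC trend off Ndufs6 changed sign, at -0.07. Ndufb7 had a mean of 111 in D6 and at most 89.4 in ND in the authors' deposited table.

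A small set of complex I genes was lower in several groups. Ndufc1 (chr3:51312098-51316409), a membrane arm subunit, was lower, at -0.32 (SE 0.12, adjusted p = 0.0427) in D6 and -0.34 (SE 0.12, adjusted p = 0.0492) in D10 repopulated against ND in the authors' deposited table. Ndufb2 was lower, at -0.27 (SE 0.09, adjusted p = 0.0199) in D6 and -0.40 (SE 0.09, adjusted p = 0.000304) in D10 repopulated against ND in the authors' deposited table. Ndufa1 (chrX:36451241-36454816), a membrane subunit, was lower, at -0.25 (SE 0.08, adjusted p = 0.0244) in D10 and -0.26 (SE 0.08, adjusted p = 0.0107) in D10 repopulated, both against ND, in the authors' deposited table. Ndufa1 was at 0.01 in D8 depleted and -0.02 in D6, neither called, in the authors' deposited table. Its mean was 117 in D8 depleted, at most 96.3 in D10 repopulated, at most 96.3 in D10, 116 in ND repopulated and 113 in ND in the authors' deposited table. These comparisons share the ND samples. Where no complex I gene was called, the nuclear one with the smallest p was Ndufa1 in D8 (-0.15) and Ndufs4 in ND repopulated (0.13), both against ND. In D10 repopulated against D10 it was Ndufb2 (-0.22) in the authors' deposited table, where mt-Nd4l had a smaller p.

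Complex II, the succinate dehydrogenase shared with the citric acid cycle, had 2 of its 4 genes called in D6. All genes were called higher at 14.1% in D6 and at 15.5% in D8 depleted against ND. Sdhd, a membrane anchor, rose by 0.33 (SE 0.10, adjusted p = 0.0102) and Sdhb, the iron-sulfur subunit, by 0.29 (SE 0.11, adjusted p = 0.03) in the authors' deposited table. Sdhb was also higher in D8 depleted against ND, by 0.32 (SE 0.11, adjusted p = 0.0217), where Sdhd, at 0.16, was not called in the authors' deposited table. Sdha, the flavin subunit, was at -0.20 (SE 0.14) and Sdhc, the other anchor, at -0.09 (SE 0.11) in D6, neither called, in the authors' deposited table. In the remaining 6 comparisons none of the 4 was called in the authors' deposited table, and the members with the smallest p were Sdhb, at 0.13 in D8, 0.06 in ND repopulated, 0.18 in D8 depleted against D8 and 0.08 in D10 repopulated against D10, and Sdhc, at -0.11 in D10 and -0.13 in D10 repopulated against ND.

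The complex III members gave 1 call in each of 2 comparisons, D6 and D8 depleted against ND, where 14.1% and 15.5% of all genes were higher. The name rule leaves out Cyc1, the cytochrome c1 of this complex, which is counted below with the carriers. Cyc1 was higher in D8 depleted against ND, by 0.35 (SE 0.12, adjusted p = 0.0175), and not called in D6, at 0.18, in the authors' deposited table. Uqcrfs1, the Rieske iron-sulfur subunit, rose by 0.34 (SE 0.11, adjusted p = 0.0178) in D6 in the authors' deposited table. Uqcr10, a small membrane subunit, rose by 0.36 (SE 0.11, adjusted p = 0.00667) in D8 depleted against ND in the authors' deposited table. The median over the 8 members was 0.19 in D8 depleted against ND and -0.12 in D10 repopulated against ND in the authors' deposited table. Uqcr11, a small accessory subunit, was at -0.23 (SE 0.10, adjusted p = 0.106) in D10 repopulated against ND, and Uqcrh, the hinge subunit, at 0.30 (SE 0.11, adjusted p = 0.0581) in D8 depleted against D8 in the authors' deposited table; neither was called.

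Complex IV, which reduces oxygen, had 3 of 19 nuclear genes higher in D6 and 3 higher and 1 lower in D8 depleted against ND, comparisons that share the ND samples, in the authors' deposited table. All genes were called at 14.1% higher in D6, and at 15.5% higher and 13% lower in D8 depleted against ND. The shares of complex IV genes called higher were near that background. In D6, Cox6a1 (chr5:115483701-115487040 on GRCm39), the widely expressed form of subunit VIa, rose by 0.43 (SE 0.13, adjusted p = 0.00577), Cox5b, a zinc-binding subunit, by 0.33 (SE 0.10, adjusted p = 0.00741) and Cox6c by 0.31 (SE 0.11, adjusted p = 0.0261) in the authors' deposited table. With depletion Cox6a1 rose against ND by 0.51 (SE 0.14, adjusted p = 0.00155), Cox5b by 0.36 (SE 0.11, adjusted p = 0.00418) and Cox6c by 0.35 (SE 0.12, adjusted p = 0.0152) in the authors' deposited table. Cox6a1 also rose against D8, by 0.40 (SE 0.12, adjusted p = 0.0161) in the authors' deposited table, the largest of the 4 rises there. Its mean was 188 in D6, 212 in D8 depleted, 158 in D8, 151 in D10 repopulated, 152 in D10 and at most 145 in ND in the authors' deposited table. The depleted group was the highest, and D10 and D10 repopulated were close to each other.

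The remaining nuclear genes of complex IV mostly did not pass the test. Ndufa4l2, a paralog of Ndufa4 known to rise in hypoxia, fell by 1.09 (SE 0.44, adjusted p = 0.0497) in D8 depleted against ND in the authors' deposited table. Its mean was at most 1.20 in D8 depleted and 1.78 in ND in the authors' deposited table. It was at -0.46 in D6, -0.60 in D8 and -0.31 in D10, none called, in the authors' deposited table. Of 3 pericyte markers, Rgs5 was lower there, at -0.51, while Kcnj8, at 0.49, and Pdgfrb, at 0.12, were not called in the authors' deposited table, and their part was not tested.

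The Cox paralogs with restricted tissue expression gave no call in any comparison. Of the forms known from heart and skeletal muscle, Cox6a2 was at -1.41 (SE 0.56, adjusted p = 0.0504) in D6 and Cox8b at -1.18 (SE 0.40, adjusted p = 0.0851) in D8 in the authors' deposited table, neither called, and their means in ND were 0.317 for Cox6a2 and 4.60 for Cox8b. Cox4i2, a form linked to low oxygen, was at -0.37 (SE 0.13, adjusted p = 0.0711) in D10 in the authors' deposited table and was not called, with a mean of 27.1 in ND. Cox6b2, best known in testis, was at -0.43 (SE 0.19) in D10 repopulated against ND, and Cox7a1, a muscle form, at 0.43 (SE 0.23) in D8 against ND in the authors' deposited table, neither called. Cox7b2 had means of 0.0884 or less in every group, and Cox8c is listed at 0 throughout in the authors' deposited table. Muscle markers gave 0 calls in all 8 comparisons. The nuclear complex IV gene with the smallest p in ND repopulated against ND was Cox7c, at 0.14 and not called, in the authors' deposited table.

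Complex V, the ATP synthase, gave 2 rises in D6 and 2 in D8 depleted against ND, where 14.1% and 15.5% of all genes were higher. Atp5g3, one of the genes for the c-ring, rose by 0.30 (SE 0.11, adjusted p = 0.0402) and Atp5o_2, for the stalk subunit OSCP, by 0.29 (SE 0.11, adjusted p = 0.0339) in D6 in the authors' deposited table. With depletion the rises against ND were Atp5mpl, a small membrane proteolipid, at 0.35 (SE 0.11, adjusted p = 0.0123) and Atp5g3 at 0.34 (SE 0.12, adjusted p = 0.0223) in the authors' deposited table. The catalytic genes Atp5a1 and Atp5b were at 0.00 (SE 0.15) and -0.20 (SE 0.16) in D6 in the authors' deposited table, neither called. Atp5e (chr2:174302865-174305898 on GRCm39), the epsilon subunit of the central stalk, fell by 0.28 (SE 0.10, adjusted p = 0.04) in D10 repopulated against ND in the authors' deposited table, and its mean was at most 131 in D10 repopulated and 145 in ND. In the other 5 comparisons no complex V gene was called. The nuclear ones with the smallest p were Atp5k, at -0.14 in D8 and -0.16 in D10, and Atp5e, at 0.10 in ND repopulated. They were Atp5mpl, at 0.33 (adjusted p = 0.0598), in D8 depleted against D8, and Atp5l, at -0.10, in D10 repopulated against D10, in the authors' deposited table. In the latter comparison mt-Atp8 had a smaller p than Atp5l.

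**Figure D4:**
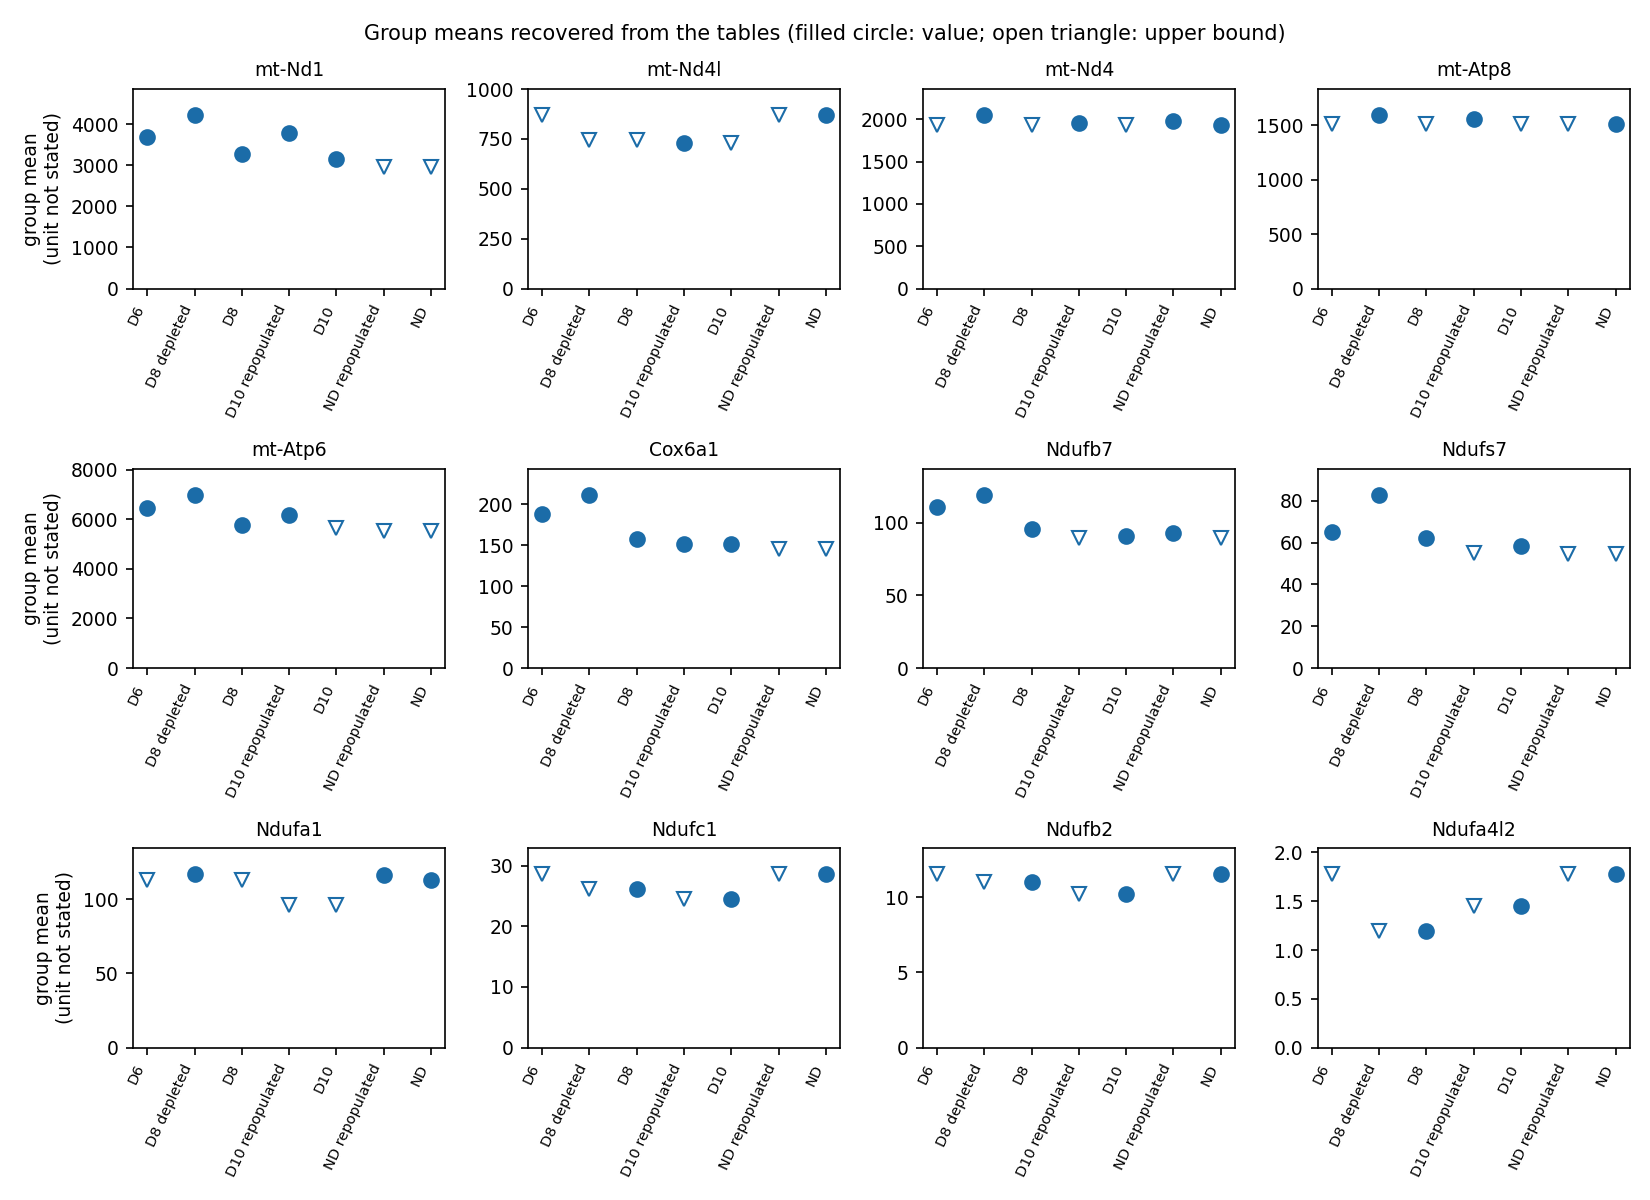
Group means read from the tables (filled circles) or upper bounds where a table gives none (open triangles), in the unit of the deposited means, for 12 members in the 7 groups. Cox6a1, Ndufs7 and mt-Nd1 are highest in D8 depleted, and mt-Nd4l is highest in ND, at 870.

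The medians of the mitochondrial and nuclear members were close in most comparisons. The mitochondrial median minus the nuclear median was -0.01 in D6, -0.01 in D8, 0.04 in D10, -0.11 in D8 depleted against ND, -0.01 in ND repopulated and -0.02 in D8 depleted against D8. It was 0.167 in D10 repopulated against ND and 0.175 in D10 repopulated against D10, comparisons that share the D10 repopulated samples. With the length and GC trend off its sign turned in 4 comparisons, to 0.03 in D8, -0.06 in D10, 0.05 in D8 depleted against ND and 0.08 in D8 depleted against D8. It was -0.09 in D6, -0.06 in ND repopulated, 0.12 in D10 repopulated against ND and 0.21 in D10 repopulated against D10 with the trend off, the same sign as deposited.

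The effect of repopulation in diabetes was tested against the effect of repopulation without diabetes, since the 2 comparisons share no samples. Of 96 members, 0 were called and 2 had an unadjusted p under 0.05 (2.08%, beside 3.82% of all genes), by a normal test with Benjamini-Hochberg adjustment; all genes were called at 0.188%. mt-Nd4l was at 0.40 with diabetes and -0.15 without, a difference of 0.56 (95% interval 0.17 to 0.94, adjusted p = 0.591), and mt-Atp8 at 0.33 and -0.14, a difference of 0.47 (95% interval 0.04 to 0.90, adjusted p = 1.00), from the authors' deposited table. The 13 mitochondrial members had a median difference of 0.20, with all 13 above 0, and the nuclear members -0.06, with 68 of 83 below 0. The median difference of all genes was 0.00. As deposited, the nuclear median was -0.02 with diabetes and 0.03 without. With the length and GC trend off these were 0.02 and -0.01, in the opposite order. The 13 genes share transcripts and samples, so their signs are not separate observations. Of the groups in this test, only D10 lies on the other side of the divide in library numbers. These differences therefore cannot be told apart from that divide.

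The effect of repopulation at 10 weeks was tested against the effect of depletion at 8 weeks in the same way. Of 98 members 0 were called, beside 0.654% of all genes, and 14 (14.3%) had an unadjusted p under 0.05, beside 11.6% of all genes. Nuclear members had a median difference of -0.17, with 72 of 85 below 0, and the smallest adjusted p of a member was 0.11. The median difference of all genes was -0.01. As deposited, the nuclear median was -0.02 for repopulation and 0.15 for depletion. With the length and GC trend off these were 0.02 and 0.05, so the size of the nuclear difference depends on that trend. Cox6a1 was at -0.01 for repopulation and 0.40 for depletion, a difference of -0.40 (95% interval -0.71 to -0.09, adjusted p = 0.255), and Ndufs7 at -0.09 and 0.39, a difference of -0.48 (95% interval -0.82 to -0.14, adjusted p = 0.178), from the authors' deposited table. Both genes are named for their calls in D8 depleted against D8, which is part of this difference, so their intervals are descriptions, and neither difference passed over all genes.

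Assembly factors, which build the complexes, had calls in both directions. Of 44 tested assembly factors, 4 rose and 8 fell in D6, and 7 rose and 2 fell in D8 depleted against ND, with medians of 0.00 and 0.01 in the authors' deposited table. Those shares were 9.09% higher and 18.2% lower in D6, beside 14.1% and 9.31% of all genes, and 15.9% higher and 4.55% lower in D8 depleted against ND, beside 15.5% and 13%. Ttc19, which acts on complex III, rose by 0.68 (SE 0.15) in D6 and by 0.85 (SE 0.16) in D8 depleted against ND in the authors' deposited table. Coa3 and Cox14, which act on early complex IV, were lower in D6, at -0.54 and -0.40, in the authors' deposited table. Cox14 (-0.43) and the complex I factor Timmdc1 (-0.49) were lower in D10 repopulated against ND in the authors' deposited table. In D8 depleted, Ttc19 (0.70) and the complex I factor Ecsit (0.40) were higher and the complex IV factor Coa5 (-0.51) lower than in D8 in the authors' deposited table.

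Genes that copy and transcribe mitochondrial DNA gave 4 rises and 2 falls among 19 in D6 and 5 rises and 0 falls in D8 depleted against ND in the authors' deposited table. The shares were 21.1% higher and 10.5% lower in D6, beside 14.1% and 9.31% of all genes. In D8 depleted against ND 26.3% were higher, beside 15.5% of all genes, and 13% of all genes were lower. Polrmt, the mitochondrial RNA polymerase, rose by 0.75 (SE 0.13) in D8 depleted against ND and by 0.58 against D8 in the authors' deposited table. Pnpt1, an exonuclease that degrades mitochondrial RNA, rose by 0.59 in D6, 0.37 in D10 and 0.65 in D8 depleted, each against ND, in the authors' deposited table. Tfam, which packs the genome and starts transcription, rose by 0.37 in D6, while Tfb1m, which methylates mitochondrial ribosomal RNA, fell by 0.88 in the authors' deposited table. Slirp, which stabilises mitochondrial messenger RNA, was lower, at -0.31 in D6 and -0.45 in D10 repopulated, both against ND, while Mtpap, which adds poly(A) tails to it, rose by 0.31 in D10 repopulated against ND in the authors' deposited table.

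Regulators of these genes were called in both directions with depletion, 3 of 12 (25%, beside 15.5% of all genes) higher and 4 (33.3%, beside 13%) lower in D8 depleted against ND in the authors' deposited table. The coactivator Ppargc1b was higher, at 0.58 (SE 0.12), and the nuclear receptors Esrrg, at -0.82 (SE 0.16), and Ppara, at -1.14 (SE 0.28), were lower in the authors' deposited table. In D6, Esrrg and the coactivator Pprc1 were lower, each at -0.47, and 0 of 12 were higher in the authors' deposited table. Against D8, depletion left Esrra higher (0.32) and Esrrg lower (-0.72) in the authors' deposited table.

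Of 16 carriers of electrons and substrates, 4 (25%, beside 15.5% of all genes) rose in D8 depleted against ND and 2 (12.5%, beside 14.1%) rose in D6 in the authors' deposited table. The pyruvate carrier Mpc1 rose by 0.45 in D8 depleted and by 0.39 in D6, both against ND, in the authors' deposited table. Ucp2, an inner membrane transporter found in immune cells and glia among others, rose by 1.09 (SE 0.28) in D8 depleted against ND, by 0.99 against D8 and by 0.83 in D10 repopulated against ND in the authors' deposited table. The 16 citric acid cycle genes gave 0 calls in 7 of 8 comparisons, among them D6, where 14.1% of all genes were higher and 9.31% lower. In D8 depleted against ND Pdha1 (-0.32) and Sucla2 (-0.27) were lower in the authors' deposited table. That is 12.5% of the 16, beside 13% of all genes lower, so the share was near the background.

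Ribosomal protein genes of the cytosol, whose transcripts are short like those of the subunits, were called higher in the same comparisons. Of 82 cytosolic ones 24 rose and 1 fell in D6 (median 0.28), 43 rose and 0 fell in D8 depleted against ND (median 0.35), and 35 rose and 0 fell in D8 depleted against D8 (median 0.34) in the authors' deposited table. The shares higher were 29.3%, 52.4% and 42.7%, beside 14.1%, 15.5% and 5.85% of all genes. Of 78 mitochondrial ones 10 rose and 6 fell in D6, 19 rose and 1 fell in D8 depleted against ND, and 1 rose and 8 fell in D10 repopulated against ND in the authors' deposited table. Of the mitochondrial ones 12.8% were higher in D6 and 24.4% in D8 depleted against ND, beside 14.1% and 15.5% of all genes. The share of all genes lower was 9.31% in D6 and 13% in D8 depleted against ND. In D10 repopulated against ND 7.49% of all genes were higher and 4.19% lower. The median transcript length of the cytosolic list was 1094 bases.

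**Figure D5:**
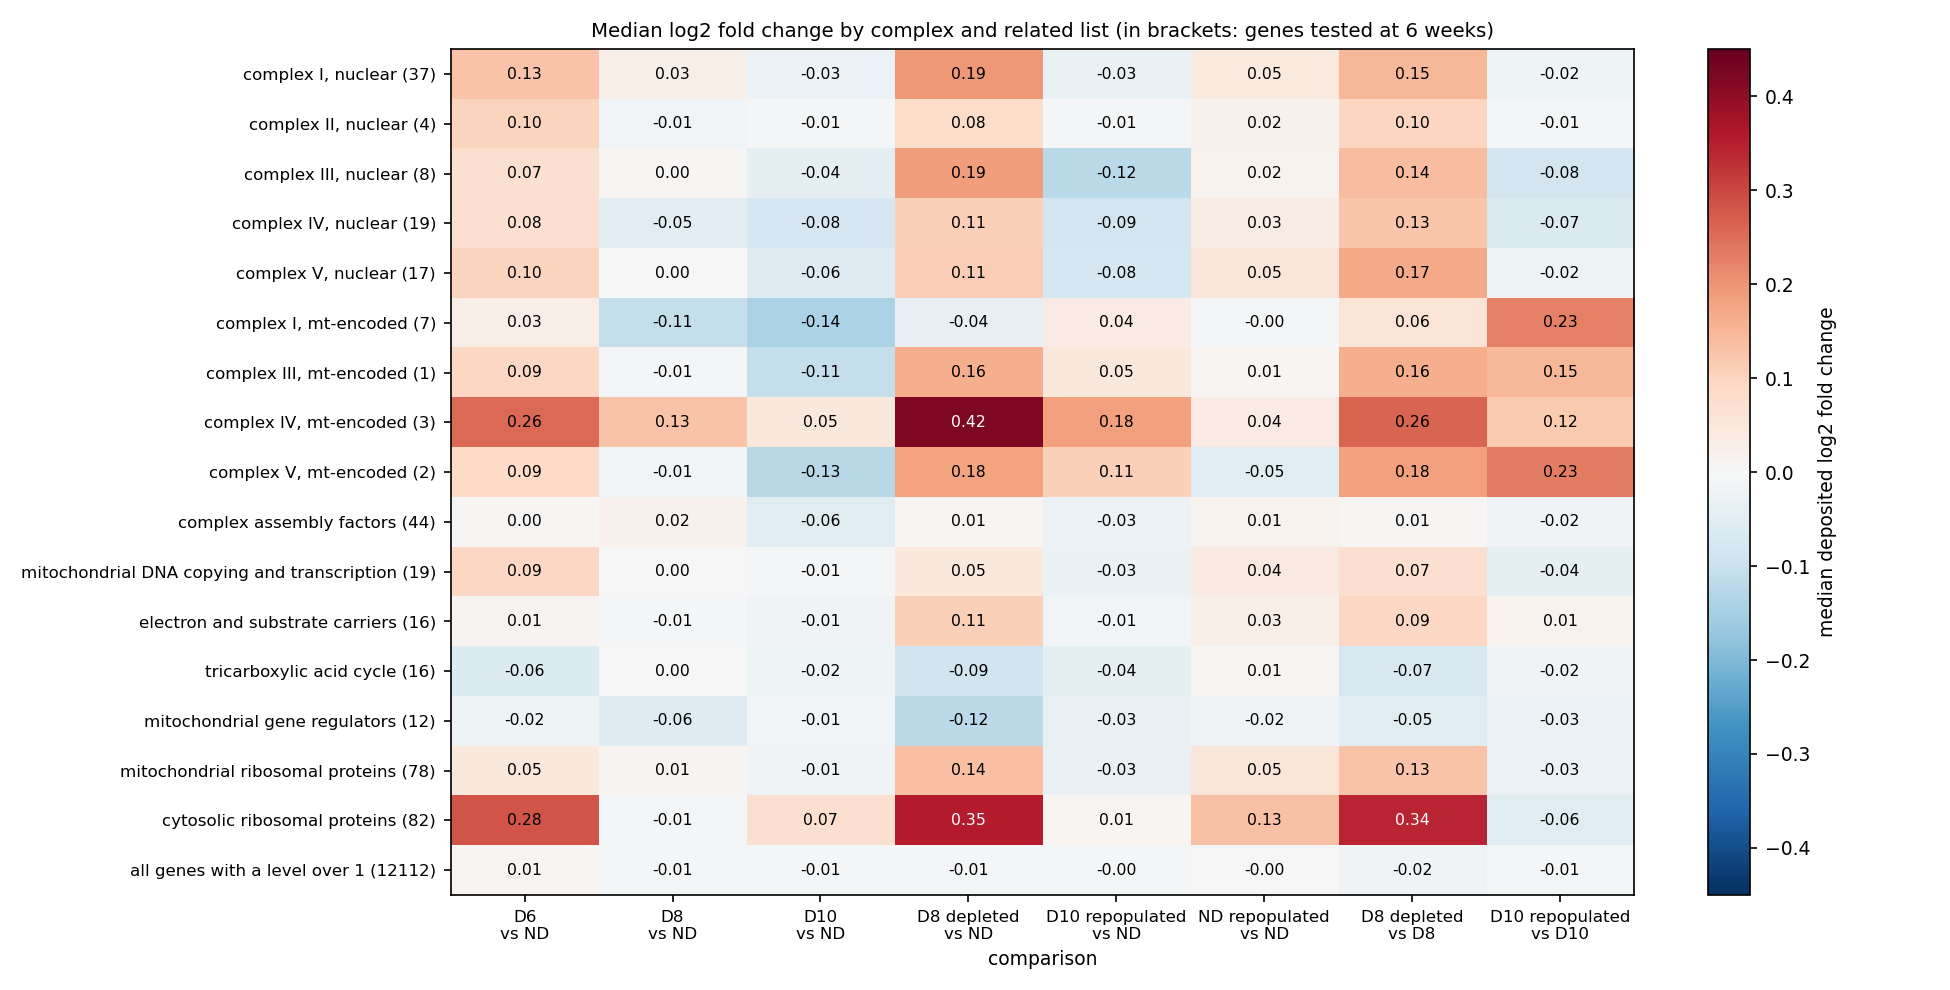
Median deposited log2 fold change (colour and number) of each complex, nuclear and mitochondrially encoded, of related lists and of all genes with a level over 1, by comparison. Cytosolic ribosomal proteins have the largest nuclear medians in D6 (0.28) and D8 depleted against ND (0.35), above nuclear complex I (0.13 and 0.19).

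Markers of cell types were called in both directions in the same comparisons. In D8 depleted against D8 5 of 5 microglia markers (median -3.23), 3 of 5 of Muller glia (median -0.42), 3 of 5 of ganglion cells, 2 of 5 of cones and 3 of 5 of lens (median -2.36) were lower in the authors' deposited table. Rod markers there were 1 higher and 1 lower of 8 and bipolar markers 1 higher and 2 lower of 5, while 3 of 4 blood markers (median 2.18) and 2 of 4 of pigment epithelium (median 1.47) were higher in the authors' deposited table. In D8 depleted against ND 5 of 5 microglia markers (median -3.32), 4 of 5 Muller glia markers (median -0.78) and 5 of 5 lens markers (median -8.91) were lower, and 2 of 4 of pigment epithelium (median 1.22) were higher in the authors' deposited table. Of the rod, cone, bipolar and ganglion cell markers there, Sag, Trpm1 and Sncg were higher. Gnat1, Pde6a, Opn1sw, Pde6h, Cabp5, Grm6, Prkca, Slc17a6, Nefl and Pou4f1 were lower. There were also falls of Muller glia markers in D6 (3 of 5, median -0.51) and in D10 (3 of 5, median -0.52), both against ND, in the authors' deposited table. Of the rod, cone, bipolar and ganglion cell markers in D6, Sag, Opn1mw and Trpm1 were higher. Gnat1, Pde6a, Pde6h, Cabp5, Grm6, Slc17a6 and Nefl were lower in D6. Blood markers were lower in D8 (3 of 4, median -3.62) and D10 (4 of 4, median -3.33) against ND, and higher in D10 repopulated against D10 (3 of 4, median 3.83) in the authors' deposited table. Lens markers were lower in D8 against ND (4 of 5, median -5.54), and pigment epithelium markers were higher in D10 repopulated against ND (2 of 4, median 1.47) and against D10 (2 of 4, median 1.75) in the authors' deposited table. The part of these markers in the members' values was not tested.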

How the data were processed

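Poly(A) RNA libraries that keep strand were sequenced from retina, per the labels' protocols. Base calls were made with bcl2fastq and the genome was GRCm39, per the submitters' processing notes. Which aligner, counting tool, strand setting and test were used is not given in the sources used here, so reads over overlapping genes or near-identical copies may be split in unknown ways.

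The authors deposited 8 comparison tables with log2 fold changes, p-values and FDR p-values per gene, a signed fold change, and the larger of both group means as a signal level in a unit that is not stated, per the file headers. Deposited FDR p-values equal Benjamini-Hochberg values within 0.000489. One table was deposited as D10 over D10 repopulated, and its log2 fold changes were multiplied by -1. No columns of values per sample were among those used, so depth is unknown.

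From these values, implied standard errors (median between 0.126 and 0.140 log2 for genes with a level over 1), counts, medians and group means were computed. Where a group mean was settled by a value shared between tables, the sign of the fold change gave the same group for 99.98% of 55305 means at an absolute log2 of 0.05 or more. Differences between comparisons without shared samples were tested with a normal test, variances added, and Benjamini-Hochberg adjustment. Transcript length and GC content were those of the longest transcript of each gene (GENCODE M21, GRCm38, matched by Ensembl number for 25600 of 25655 genes and all members). A cubic trend on both was fitted on genes whose level exceeds 1 and then taken off every gene. Promoters are from RefSeq, GRCm38.p6. Steps were tested on simulated data. Scripts ran under Python 3.11.15 (pandas 2.3.3, numpy 2.4.6, scipy 1.17.1, matplotlib 3.10.9).

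The members, the gene lists and the tests were chosen with earlier results of these data known, and counts of a list are descriptions. Named genes are the mitochondrial members, the paralogs with restricted expression, and up to 3 called members with the largest rise and fall per complex and comparison. Where no nuclear member of a complex was called, the nuclear one with the smallest p is named. Up to 3 called genes per related list are named as well. Ndufs7, Ndufa11, Ndufs6 and Ndufv1 in D6, Ndufa2 and Ndufa7 in D8 depleted against ND, Sdha, Sdhc and Sdhd where not called, Ndufa1 where not called, Atp5a1, Atp5b, Slirp in D6 and Rgs5 were named after their values were seen, as were Kcnj8 and Pdgfrb. Cyc1, Uqcc2 and the rod, cone, bipolar and ganglion cell markers given by name were likewise named after their values were seen. Mitochondrial ribosomal and transfer RNA had 0 genes in the tables, and Fastkd4 was not matched. Alternatives were thresholds of 0.01 and 0.10, the lowest 40 percent by level left out, the median of all genes taken off, the trend taken off, and means in place of medians. A result that the naming rule would have included is not reported here.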

Additional observations from a re-analysis of the deposited data

How the results depend on the processing

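No paired analysis was possible because the tables hold no values per sample, and leaving out a replicate could not be run for the same reason. Apart from the cases given here, counts of members stayed within 1.5 times the reported ones. At a threshold of 0.01 the members called were 3 higher and 0 lower in D6, 1 lower in D10, 13 higher and 1 lower in D8 depleted against ND, 1 lower in D10 repopulated against ND, and 0 higher in D8 depleted against D8. At 0.10 they were 1 lower in D8, 4 lower in D8 depleted against ND, 7 lower in D10 repopulated against ND, and 15 higher in D8 depleted against D8. With the lowest 40 percent by level left out, 1 was lower in D8 depleted against ND. With the median of all genes taken off, 1 was lower there and 7 were higher in D8 depleted against D8. The shares of all genes under these thresholds and settings are not given here, so these counts are not read against a background. With the length and GC trend off, 1 was higher and 21 lower in D6, 19 lower in D10, 3 higher and 5 lower in D8 depleted against ND, 26 lower in D10 repopulated against ND, and 0 higher in D8 depleted against D8. Ndufs6 in D6 was reversed by it, at -0.072, and of 53 single calls 39 were lost and 13 held. The mitochondrial minus nuclear difference in D8 depleted against ND was 0.0022 with means and 0.045 with the trend off, and its sign also turned with the trend off in D8, D10 and D8 depleted against D8. The cause of these changes was not tested. Depth is unknown, so no limit from counting error can be given.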
